A study of Homo sapiens with 2 samples.

Results

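Pyruvate dehydrogenase, the mitochondrial complex that turns pyruvate into acetyl-CoA, was examined through 10 listed genes for its subunits, its kinases and its phosphatases in EBC1-R and EBC1 cells. The kinases are PDK1, PDK2, PDK3 and PDK4, the phosphatases PDP1 and PDP2, and the subunits PDHA1, PDHB, DLAT and PDHX. Of the 10 genes, 9 were measured by a probe set annotated to that gene alone, out of 18377 genes measured in this way. PDP2 was named by no probe set in the annotation used here and has no value. EBC1 is an established human line of lung squamous cell carcinoma that carries an amplified MET gene, and it served as the parental line. EBC1-R is the population of EBC1 cells that survived stepwise exposure to the MET kinase inhibitor PHA-665752, and it was then kept in 3 µM inhibitor. Nothing in the labels says whether EBC1-R is a clone, and no inhibitor is named for the parental cells. Selection for resistance and presence of the drug therefore cannot be told apart. There was 1 array of EBC1-R and 1 array of EBC1, so no value below has a replicate error, no difference was tested, and the number of arrays limits the precision. The genes were selected on the difference in deposited values between these arrays, which was already known when they were listed, and their differences are given as a description.

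Pyruvate dehydrogenase stands between glycolysis and the citric acid cycle. Its E1 component, made of PDHA1 and PDHB, decarboxylates pyruvate, its E2 component DLAT passes the acetyl group to coenzyme A on a swinging lipoyl arm, and its E3 component DLD reoxidises that arm and makes NADH. PDHX anchors E3 to the E2 core. The PDK enzymes phosphorylate serines of PDHA1 and switch the complex off, which leaves pyruvate to lactate and other fates. The PDP phosphatases remove the phosphates and switch it on again. Phosphorylation and enzyme activity were not measured by the arrays, which report transcripts only.

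The values are log2 intensities as deposited, 1 per probe set and array, and each of the 9 measured genes had 1 probe set. The median of all probe sets was 6.71 in EBC1-R and 6.73 in EBC1, and the median difference over all genes was -0.03 log2 units. All 9 genes passed a level filter set at 7.41, the median over genes of the higher of their 2 values. MET was at 13.21 in EBC1-R and 13.17 in EBC1, and ABCB1, the drug efflux pump in the study's title, was at 12.65 in EBC1-R and 5.37 in EBC1, a value not shown to be above background. The 7 epithelial markers lay between 9.18 and 12.06 in EBC1-R and between 9.09 and 12.83 in EBC1. Of these, KRT19, KRT8 and KRT18 differed by -0.89, -0.83 and -0.78, and the other 4 by -0.16 to 0.10. The part of these keratin differences in the results below was not tested. The 5 measured markers of squamous cells, KRT5, KRT14, SOX2, DSG3 and PKP1, were dim for that label, at 5.13 to 6.97 in EBC1-R and 5.19 to 7.26 in EBC1. Summed over the list, the log2 levels of 6 measured leukocyte markers were 37.5 in EBC1-R and 37.1 in EBC1, those of 6 fibroblast markers 35.9 in EBC1-R and 36.1 in EBC1, and those of 5 endothelial markers 28.3 in EBC1-R and 28.6 in EBC1. PTPRC, the defining leukocyte marker, was at 4.65 in EBC1-R and 4.56 in EBC1, near the lowest values of the arrays, while CD68 was at 11.45 in EBC1-R and 11.04 in EBC1.

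All 4 kinases had more transcript signal in EBC1-R, by amounts that ran from small to more than 5-fold. PDK4, the kinase known for its induction by fasting, fatty acids and glucocorticoids in muscle and liver, was at 10.64 in EBC1-R and 8.21 in EBC1 (probe set 8141094). Its difference of 2.43 log2 units, or 5.39-fold, was the 19th highest of all 18377 genes. Within the distribution of all probe sets, PDK4 stood at the 95.2nd percentile in EBC1-R and at the 72.2nd in EBC1, so it was not among the dim probe sets on either array. PDK1, the kinase known as a target of hypoxia-inducible factor, was at 9.66 in EBC1-R and 8.17 in EBC1 (probe set 8046408). Its difference of 1.496, or 2.82-fold, ranked 76th. It stood at the 88.7th percentile of probe sets in EBC1-R and at the 71.7th in EBC1.

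PDK3, the X-linked kinase that also responds to hypoxia, was at 9.50 in EBC1-R and 8.78 in EBC1 (probe set 8166511). This is a difference of 0.72, or 1.64-fold, and 2.82% of all genes had a larger one. PDK2, the most widely expressed kinase of the family, was at 8.85 in EBC1-R and 8.41 in EBC1 (probe set 8008263), a difference of 0.44 or 1.36-fold. On these arrays the differences thus ran, from large to small, PDK4, PDK1, PDK3 and PDK2, with no error to set the steps against. The median of the 4 kinases was 1.11, and 0.72 without PDK4.

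**Figure D1:**
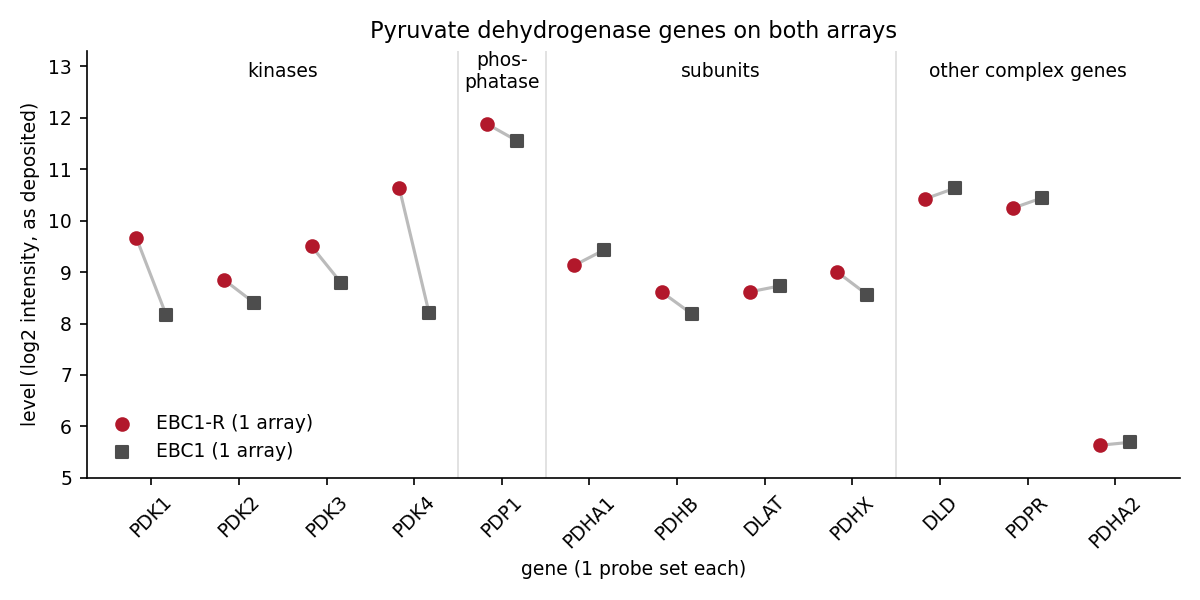
Level of each gene of the complex as log2 intensity, with EBC1-R (red circles) left of EBC1 (grey squares) and 1 probe set and 1 array per point, so points have no error bar. PDK4 and PDK1 show the steepest lines, 10.64 against 8.21 and 9.66 against 8.17, while PDHA1, DLAT, DLD, PDPR and PDHA2 were slightly lower in EBC1-R; heights should be compared within a gene and not between genes.

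PDK4, PDK1 and PDK3 made 3 of the 9 measured genes that were 1.5-fold or more above EBC1 in EBC1-R, as were 4.41% of all genes and 7.03% of those above the level filter. PDK4 and PDK1 were the 2 genes past 2-fold, as were 1.26% of all genes and 2.13% above the filter. None of the 9 was 1.5-fold lower, as 3.16% of all genes and 5.5% above the filter were. None was 2-fold lower, as 0.887% of all genes and 1.67% above the filter were. In all, 7 of the 9 differences were positive, against 43.3% over all genes and 49.6% above the filter. Because the genes were listed with this contrast known, these shares are background and nothing is read from them.

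**Figure D2:**
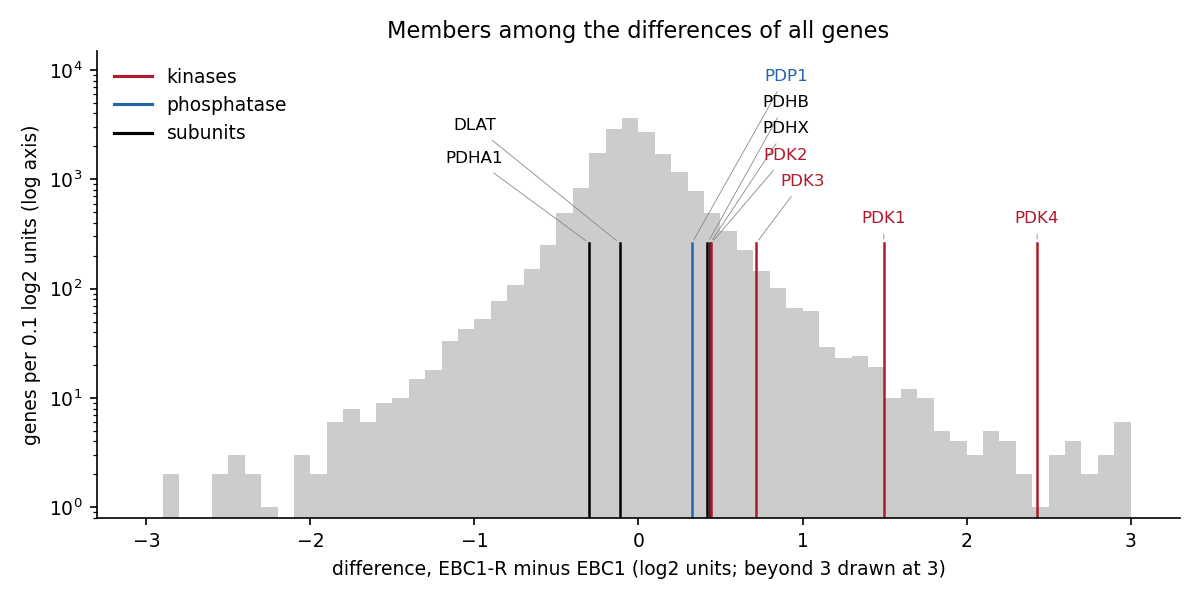
Number of genes (log axis) by difference EBC1-R minus EBC1 in log2 units for all 18377 genes, with the 9 measured genes as coloured lines. PDK1 at 1.496 and PDK4 at 2.43 lie in the right tail, PDK3 at 0.72 on its shoulder, and the phosphatase and the subunits between -0.30 and 0.44.

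The enzyme that opposes the kinases differed little. PDP1, the calcium-stimulated phosphatase, was at 11.88 in EBC1-R and 11.55 in EBC1 (probe set 8147344), a difference of 0.33 or 1.25-fold. It was bright on both arrays, above the 98th percentile of probe sets. PDPR, the regulatory subunit that restrains the phosphatase, was at 10.24 in EBC1-R and 10.44 in EBC1, a difference of -0.20.

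The subunits did not move in a common direction. PDHA1, the E1 alpha subunit that carries the phosphorylated serines, was at 9.13 in EBC1-R and 9.43 in EBC1 (probe set 8166335), a difference of -0.30 or 1.23-fold lower. PDHB, its E1 beta partner, was at 8.61 in EBC1-R and 8.19 in EBC1 (probe set 8088384), a difference of 0.42 or 1.34-fold higher. These proteins form 1 enzyme, yet their transcript signals stood on opposite sides of 0. The E2 core DLAT was at 8.62 in EBC1-R and 8.73 in EBC1 (probe set 7943827), a difference of -0.11. PDHX, the E3 binding protein, was at 8.998 in EBC1-R and 8.56 in EBC1 (probe set 7939329), a difference of 0.44 or 1.35-fold higher. The median of these 4 subunits was 0.15. With the shared E3 subunit DLD added, which was at 10.42 in EBC1-R and 10.63 in EBC1 with a difference of -0.21, the median was -0.11, so the sign of the subunit median rested on whether DLD was counted. PDHA2, the testis form of E1 alpha, was dim on both arrays, at 5.64 in EBC1-R and 5.69 in EBC1.

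For scale, the differences of the kinases were set against those of their substrate complex on the same arrays. The difference of PDK4 exceeded that of PDHA1 by 2.73 log2 units, or 6.63-fold, and the median of the 4 subunits by 2.28, or 4.85-fold. For PDK1 the gap was 1.80 to PDHA1, or 3.47-fold, and 1.34 to the subunit median, or 2.54-fold. PDK3 was 1.02 above PDHA1 but only 0.30 above PDHB and 0.28 above PDHX. The difference of PDK2 was within 0.02 of that of PDHB and within 0.01 of that of PDHX. Set against PDP1, the gap was 2.11 for PDK4, 1.17 for PDK1, 0.39 for PDK3 and 0.12 for PDK2. Any scaling shared by a whole array cancels in these gaps, and they show unequal change, not which of the transcripts changed. With 1 array per group, no error of these gaps was measured.

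The start regions of the kinases that differed at least 1.5-fold are shown because PDK1 and PDK3 are known to respond to hypoxia-inducible factor, whose core element reads ACGTG or GCGTG. The windows run from 250 bases before to 50 bases after a transcript start annotated by RefSeq (GRCh38.p14), 5′ to 3′ on the strand of the gene. Capitals mark each match of either motif on either strand, so a match on the opposite strand reads CACGT or CACGC. RefSeq gives PDK1 another window, upstream, which held no match and is not shown. That choice was made after the matches were known.
PDK1, chr2:172555840-172556139, plus strand: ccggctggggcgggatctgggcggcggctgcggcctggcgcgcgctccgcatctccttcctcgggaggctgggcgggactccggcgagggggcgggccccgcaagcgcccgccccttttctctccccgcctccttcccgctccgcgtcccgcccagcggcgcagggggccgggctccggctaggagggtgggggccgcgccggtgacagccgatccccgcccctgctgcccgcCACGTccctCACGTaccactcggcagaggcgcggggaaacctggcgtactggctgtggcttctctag
PDK3, chrX:24465036-24465335, plus strand: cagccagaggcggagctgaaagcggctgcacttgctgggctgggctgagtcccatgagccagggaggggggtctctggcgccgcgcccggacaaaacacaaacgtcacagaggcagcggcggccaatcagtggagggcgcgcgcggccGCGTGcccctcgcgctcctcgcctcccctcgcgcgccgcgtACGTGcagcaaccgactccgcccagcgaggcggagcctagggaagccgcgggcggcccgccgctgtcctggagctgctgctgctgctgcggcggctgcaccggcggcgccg
PDK4, chr7:95596467-95596766, minus strand: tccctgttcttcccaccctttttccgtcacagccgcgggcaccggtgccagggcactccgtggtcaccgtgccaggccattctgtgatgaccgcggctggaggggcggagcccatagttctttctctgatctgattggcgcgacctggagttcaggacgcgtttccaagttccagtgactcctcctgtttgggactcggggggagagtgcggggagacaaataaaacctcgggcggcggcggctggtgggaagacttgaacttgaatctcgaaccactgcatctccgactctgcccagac

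The PDK1 window holds a tandem of ACGTG on the opposite strand, starting 17 and 8 bases before the transcript start. PDK3 holds ACGTG 61 bases and GCGTG 102 bases before its start. PDK4, which had the largest difference, holds neither motif in its window. Windows were given for 9 of the 10 genes, 3 of them with several windows, and not for PDP1. ACGTG occurred in at least 1 window of 7 of these 9 genes, against 24.9% of 27305 genes, and either motif in 8 of 9, against 52.4%. Counted by window, 7 of 13 held ACGTG, against 21.4% of all windows, and 8 of 13 held either, against 48.4%. Among these 13, the windows with a match were 62% to 77% G or C, and those without 36.3% to 71.7%. The shares over all genes and windows were not matched for this content. PDHB (3 matches of each motif) and DLAT (1 of ACGTG and 2 of GCGTG) held as many as the kinases did, although their differences were 0.42 and -0.11. In PDK2, PDP2 and PDHB an ACGTG on the gene's strand overlapped one on the opposite strand, as the palindrome CACGTG. In these genes the number of matches did not follow the size of the difference. The matches are letters in a sequence and no binding was measured.

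Targets that are known to share regulators with PDK1 and PDK4 gave different pictures. Of 22 measured targets of hypoxia-inducible factor, 19 were higher in EBC1-R, 11 at least 1.5-fold and 7 at least 2-fold, with none 1.5-fold lower, and the median was 0.55. Over all genes, 43.3% were higher, 4.41% at least 1.5-fold and 1.26% at least 2-fold, and 3.16% were 1.5-fold lower. Above the level filter these shares were 49.6%, 7.03%, 2.13% and 5.5%. The largest differences of the list were in EGLN3 (2.28), PFKFB3 (1.71), BNIP3 (1.56) and P4HA1 (1.52), so the 1.496 of PDK1 stood just below these. The glycolytic enzymes and glucose carriers of the list spread widely, with PFKFB3 above, TPI1 at 0.64, PFKFB4 at 0.51, HK2 at 0.44, SLC2A1 at 0.41, PGK1 at 0.33, ALDOA at 0.16, GAPDH at 0.002, ENO1 at -0.09 and SLC2A3 at -0.18, grouped once their values were known. Of these enzymes and carriers, PFKFB4 and SLC2A3 were under the level filter. The list overlaps a set already known to be higher on these arrays and is no independent evidence of a direction.

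Of 15 measured genes known as targets of PPAR or FOXO factors alongside PDK4, 7 were higher and 8 lower in EBC1-R, and the median was -0.005. Among all genes, 43.3% were higher and 55.5% lower. TXNIP, which restrains glucose uptake, was at 9.02 in EBC1-R and 8.15 in EBC1, a difference of 0.87. The fatty acid transporter CD36 was at 5.29 in EBC1-R and 4.62 in EBC1, dim on both arrays, with a difference of 0.67, and ANGPTL4 differed by 0.55. UCP2, a mitochondrial carrier, was at 6.81 in EBC1-R and 7.80 in EBC1, a difference of -0.99. CPT1A, which admits fatty acids to mitochondria and often accompanies PDK4 in fasted tissues, differed by 0.01. It was singled out once its value was known. TXNIP and CD36 were the 2 genes of this list at least 1.5-fold higher, UCP2 the 1 lower, and none reached 2-fold. By at least 1.5-fold, 4.41% of all genes were higher and 3.16% lower, and by at least 2-fold 1.26% and 0.887%. PLIN2, UCP3, FABP4, FGF21, G6PC1, KLF15 and SESN1, named here for their level alone, were like CD36 under the level filter. A difference could be missed in genes that dim. Without them the median of the list was 0.01. PDK4 differed more than each of the measured genes of this list, but it was itself listed with this contrast known.

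The factors known to act on PDK genes were measured as transcripts, which need not follow their activity. HIF1A was at 12.51 in EBC1-R and 12.76 in EBC1, a difference of -0.25, and its relative EPAS1 differed by -0.27. ARNT, their shared partner, was at 9.22 in EBC1-R and 8.52 in EBC1, a difference of 0.70 or 1.62-fold. PPARG was at 9.36 in EBC1-R and 10.31 in EBC1, a difference of -0.95 or 1.93-fold lower, whereas PPARA differed by 0.53 and PPARD by -0.10. FOXO1 differed by 0.17, FOXO3, under the level filter, by -0.21 and the cell cycle factor E2F1 by -0.41. Of the 16 factors, 6 were higher and 10 lower, the median was -0.08, and ARNT and PPARG were the 2 past 1.5-fold. Among all genes, 43.3% were higher and 55.5% lower. By at least 1.5-fold, 4.41% were higher and 3.16% lower.

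**Figure D3:**
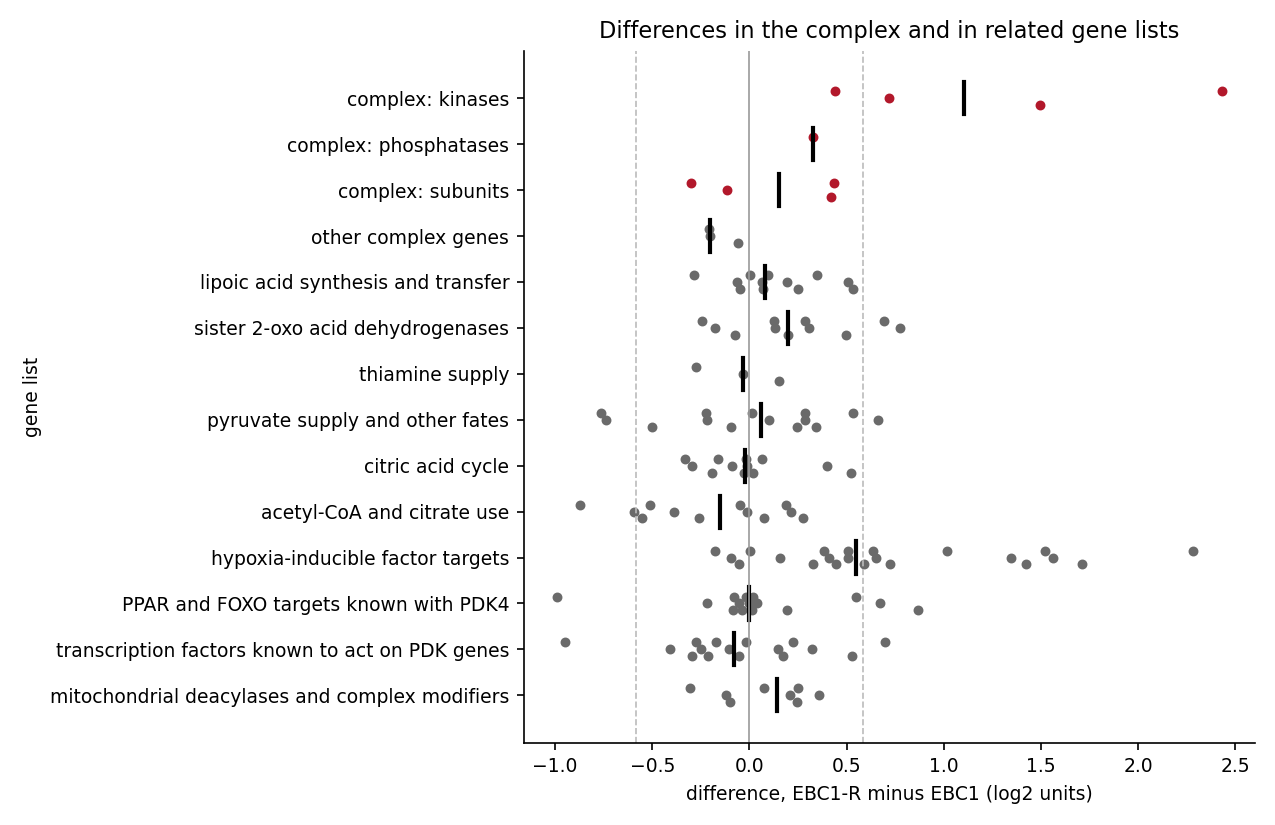
Difference EBC1-R minus EBC1 in log2 units for each measured gene (points) of the complex (red, with the regulators and subunits apart) and of related lists (grey), with list medians as black bars and 1.5-fold either way as dashed lines. The kinase median of 1.11 and the median of 0.55 for targets of hypoxia-inducible factor lie right of the other medians, which run from -0.20 to 0.33.

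Genes that supply, divert or use pyruvate were mixed. Of 14 measured genes, 8 were higher and 6 lower, and the median was 0.06. Past 1.5-fold, 1 of the 14 was higher and 2 were lower. For comparison, 43.3% of all genes lay above 0 and 55.5% below. Past 1.5-fold were 4.41% of all genes upward and 3.16% downward, or 7.03% and 5.5% of those above the level filter. The malic enzymes, which make pyruvate from malate, went both ways, with cytosolic ME1 at 10.07 in EBC1-R and 9.41 in EBC1 (0.66), mitochondrial ME2 different by 0.53, and mitochondrial ME3 at 8.60 in EBC1-R and 9.36 in EBC1 (-0.76). PCK2, which makes phosphoenolpyruvate in mitochondria, was at 8.36 in EBC1-R and 9.10 in EBC1, a difference of -0.74 or 1.67-fold lower. The carrier subunits MPC1 and MPC2, which bring pyruvate to the complex, differed by 0.24 and 0.28, and lactate dehydrogenases LDHA and LDHB by 0.34 and 0.02. In the other direction, PKM was at 12.08 in EBC1-R and 12.58 in EBC1, a difference of -0.50, and PC differed by -0.22. MPC1, MPC2, LDHA, LDHB, PKM and PC were singled out once their values were known. None of these 14 genes approached the difference of PDK4 or PDK1.

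Downstream of the complex, none of 12 measured citric acid cycle genes differed 1.5-fold, as 4.41% of all genes did upward and 3.16% downward. The median of these 12 genes was -0.02. The largest were the succinyl-CoA ligase subunits SUCLG2 (0.52) and SUCLG1 (0.40), the succinate dehydrogenase subunit SDHC (-0.33) and the isocitrate dehydrogenase subunit IDH3A (-0.30). Of 12 genes that export citrate, or that make or use acetyl-CoA apart from the complex, 8 were below 0 (66.7%, against 55.5% of all genes). Their median was -0.15. FASN and ACACA were the 2 past 1.5-fold, both lower, as were 3.16% of all genes. FASN, which builds palmitate, was at 8.34 in EBC1-R and 9.21 in EBC1, a difference of -0.87. ACACA, which makes the malonyl-CoA for it, was at 8.66 in EBC1-R and 9.25 in EBC1, a difference of -0.59. ACSS2 and ACAT2 differed by -0.55 and -0.51.

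Chromosomal neighbours were compared because ABCB1, on the same chromosome as PDK4, differed so much. In the RefSeq gene order, 42 measured protein-coding genes lie between ABCB1 and PDK4. The 10 measured genes nearest to PDK4, 5 on each side, differed by -0.10 to 0.43, with a median of 0.14 and none at least 1.5-fold. The adjacent genes ASB4 and DYNC1I1 differed by 0.17 and -0.07. Both were under the level filter on both arrays, as were PON1, PON3, DLX6 and DLX5, so a shared difference could be missed there. The brighter neighbours PPP1R9A, PON2, SLC25A13 and SEM1 differed by -0.10, 0.43, 0.003 and -0.04. The difference of PDK4 was thus not shared by these brighter genes. Around PDK1 the median was 0.21 and the range -0.97 to 0.68. The nearest measured gene on one side, the integrin ITGA6, was at 10.46 in EBC1-R and 11.43 in EBC1, so it was 1.97-fold lower beside a kinase 2.82-fold higher. Around PDK3 the range was -0.51 to 0.17, and PDK3 lay above all 10 of its neighbours. PDK1 and PDK4 also lay above all of theirs, and PDK2, at 0.44, was close to its highest neighbour DLX3, at 0.41. The comparison with neighbours was added once values of these genes were known.

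The kinase genes share an arrangement that the list did not use. Within 5 measured genes, PDK1 has DLX1, DLX2 and ITGA6, PDK2 has DLX3, DLX4 and ITGA3, and PDK4 has DLX6 and DLX5. The DLX genes are homeobox genes found as linked pairs. These 6 DLX genes, dim on both arrays, differed by -0.24 to 0.41 with a median of 0.10, and ITGA3 differed by -0.27. The integrins ITGA6 and ITGA3 were thus both lower, beside kinases that were higher. In the DLX genes, under the level filter on both arrays, a shared difference could be missed. These neighbours were grouped once their values were known. PDK3, on chromosome X, has no DLX gene among its 10 neighbours.

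**Figure D4:**
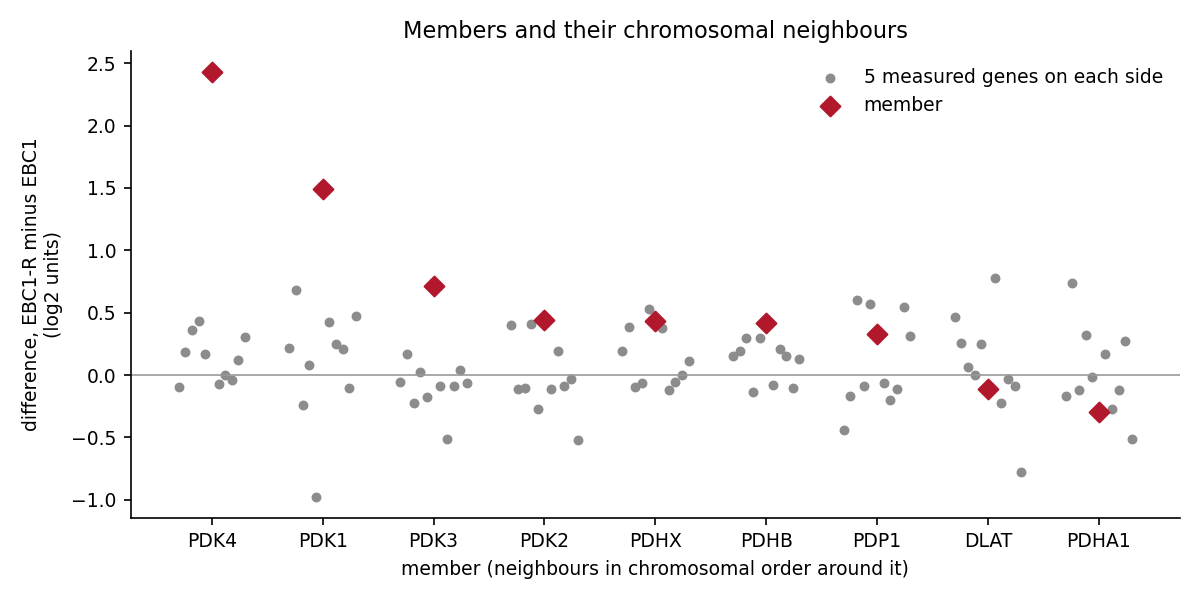
Difference EBC1-R minus EBC1 in log2 units of each measured gene of the complex (red diamonds) and of the 5 nearest measured protein-coding genes on each side in chromosomal order (grey points). PDK4 at 2.43 stands above neighbours between -0.10 and 0.43, and ITGA6 beside PDK1 is the lowest grey point, at -0.97.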

How the data were processed

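Total RNA (100 ng per array) was labelled with a whole-transcript kit, per the labels' protocols. For each array the authors deposited values of 28869 probe sets, read here as log2 intensities from their range (4.22 to 14.22 in EBC1-R and 4.21 to 14.12 in EBC1). The sources used here give no log base, background correction, normalization or software. The sorted columns differed by at most 0.17, which would follow if they had been scaled to each other before deposit, but no source states it. The extraction protocol names another array than the one whose annotation matches these probe sets.

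Probe sets with exactly 1 symbol (19310, against 1752 with several and 7807 with none) were averaged per gene (Python 3.11.15, pandas 2.3.3). Symbols were checked by gene ID against RefSeq (GRCh38.p14), which held 19279 and changed 0. Differences are log2 EBC1-R minus log2 EBC1, with no test. Counting was tested on simulated data. The genes, lists and markers were chosen with earlier results of these data known. By rule, the text names the 10 genes, DLD, PDPR and PDHA2, the 4 genes per related list with the largest difference, 8 transcription factors, MET and ABCB1. Other genes, cell type markers and chromosomal neighbours apart, are marked as singled out, as grouped or as named for their level. Alternatives were quantile normalization, median centring, a lowess trend (span 0.2, statsmodels 0.14.6), a pseudocount of 16, the brightest probe set, probe sets with several symbols, and the level filter.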

Additional observations from a re-analysis of the deposited data

How the results depend on the processing

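No paired analysis was possible because each group has 1 array and the labels give no replicate numbers. Under quantile normalization, median centring, removal of a lowess trend, a pseudocount of 16, the brightest probe set and the addition of probe sets naming several genes, all 9 measured genes moved by less than 0.16 log2 units, the SD between the differences of probe sets of the same gene over 374 genes with several (agreement of probe sets only), with PDK4 between 2.37 and 2.46 and PDK1 between 1.45 and 1.53. The counts of 3 genes 1.5-fold or more above EBC1, and of 2 genes past 2-fold, were the same under these 6 alternatives. The brightest probe set and the added probe sets could not change any of the 9 genes or these counts. Each gene had 1 probe set, and none was named by a probe set with several symbols. Median centring only takes the same -0.03 from every gene. Such values, fixed in advance, are part of the total that follows. Of 216 values recomputed, 212 kept within that SD or within 1.5 times the count, none changed direction among differences past 1.5-fold, and 4 moved. With the level filter, the median of the thiamine list was 0.15 and that of the acetyl-CoA list -0.39, because fewer genes entered. The other 2, added after seeing the data, were the kinase median without PDK4 (0.72) and the subunit median with DLD (-0.11). Signal over background could not be judged, since no detection call came with the values.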

Other observations

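The branched-chain 2-oxo acid dehydrogenase is a sister enzyme built and regulated like pyruvate dehydrogenase. Its E1 and E2 subunits, kinase and phosphatase, 5 measured genes grouped after the values were seen, were all higher in EBC1-R. Its E3 subunit DLD was lower, at -0.21, and 43.3% of all genes were higher. BCKDHA, the E1 alpha subunit of this enzyme, was at 10.55 in EBC1-R and 9.85 in EBC1, a difference of 0.70 or 1.62-fold. Its partner BCKDHB differed by 0.50 and the E2 core DBT by 0.31. The phosphatase PPM1K was at 7.11 in EBC1-R and 6.33 in EBC1, under the level filter, with a difference of 0.78, while its kinase BCKDK differed by 0.13. Among the measured regulators, the largest difference was thus in the phosphatase there, a dim gene, and in a kinase for pyruvate dehydrogenase, whose phosphatase PDP2 has no value. The 2-oxoglutarate dehydrogenase subunits OGDH and DLST differed by -0.24 and -0.08, beside -0.21 for DLD, the E3 subunit that the 3 complexes share. OGDH and DLST were singled out once their values were known. Over the whole list of 11 measured sister genes, 8 were higher, 2 at least 1.5-fold, and the median was 0.20. The shares among all genes were 43.3% higher and 4.41% at least 1.5-fold higher.

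Lipoic acid, the cofactor on the arm of DLAT, is made and attached by a pathway of which 12 genes were measured. Of these, 9 were higher, against 43.3% of all genes, and the median was 0.08. None was past 1.5-fold, as 4.41% of all genes were upward and 3.16% downward. The synthase LIAS was at 8.13 in EBC1-R and 7.59 in EBC1, a difference of 0.53, and NFU1, which supplies it with iron-sulfur clusters, differed by 0.51. ISCA2, of the same cluster assembly, differed by 0.35, and IBA57, under the level filter, by -0.28. Genes for the cofactor thiamine differed little: SLC19A2 by 0.15, SLC19A3 by -0.03 and THTPA by -0.28, with a median of -0.03. Of these, SLC19A3 and THTPA were under the level filter. Among 8 genes of a list of mitochondrial deacylases and other metabolic or signalling proteins the median was 0.14. None of these passed 1.5-fold, beside the same 4.41% and 3.16% of all genes. SIRT5 differed by 0.36, SUCNR1 by -0.31, SIRT4 by 0.25 and FGFR1 by 0.25, with SUCNR1 and SIRT4 under the level filter.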
